A study of Mus musculus with 4 samples.

Results

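A set of 9 genes of retinoic acid metabolism and response was followed through the developing mouse telencephalic midline. It holds Aldh1a2 and Aldh1a3, which make retinoic acid, Rbp4 and Stra6, which carry and take up its precursor retinol, Crabp1 and Crabp2, which bind it in the cytoplasm, Rara and Rarb, which are its nuclear receptors, and Cyp26b1, which breaks it down. The genes were chosen by name, and all 9 are among the 21937 features of the deposited matrices. Their levels were read in each library in meningeal-like and in neural cells, kept apart. The meningeal-like class was gated on 12 markers of meninges and other mesenchyme (Col1a1, Col1a2, Col3a1, Dcn, Lum, Foxc1, Foxd1, Foxc2, Twist1, Pdgfra, Prrx1 and Tbx18), which do not separate meninges from other mesenchyme. None of the 9 genes is among these markers.

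The study profiled single cells from dissected embryonic tissue around the cortical hem, a signalling centre at the dorsal edge of the cortex, with Cajal-Retzius cells and part of the hippocampal primordium included. The 4 groups were E14.5 Lmx1aCre::Ai9::b-cat gof, E14.5 Lmx1aCre::Ai9, E11.5 Lmx1aCre::Ai9::b-cat gof and E11.5 Lmx1aCre::Ai9, here called gof and control at each age. Both genotypes carry Lmx1aCre, a Cre driver active in the Lmx1a lineage, which includes the hem, and Ai9, a reporter that makes tdTomato after recombination. The b-cat gof allele, a gain of function of β-catenin, is thus activated only in cells that have had Lmx1aCre activity. Each group was 1 library from both hemispheres of pooled male embryos, 3 embryos at E14.5 and 5 at E11.5, so differences between genotypes or ages have no replicate check and carry no p-value. Ctnnb1, which encodes β-catenin, had 285 CPM in E14.5 gof, 308 CPM in E14.5 control, 229 CPM in E11.5 gof and 264 CPM in E11.5 control neural cells. Those values give no check of the genotype, because the labels do not describe the altered part of the allele and the reads are 3′ tags.

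As background, retinol circulates bound to Rbp4, enters some cells through the membrane receptor Stra6 and is oxidised to retinaldehyde and then, by the Aldh1a enzymes, to retinoic acid. Retinoic acid binds nuclear receptors that pair with retinoid X receptors on direct repeats of a hexamer, and Rarb is itself a textbook target of the pathway through such a repeat in its promoter. The meninges are a known source of retinoic acid for the embryonic mouse forebrain, and Cyp26 enzymes limit where the ligand reaches.

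Promoter windows of Rarb, Stra6 and Rbp4 are shown because the results turn on these genes and because the windows hold letters of the retinoic acid receptor site or of the site of TCF/LEF factors, the DNA-binding partners of β-catenin. Each is the 250 bases before a RefSeq transcript start in GRCm38.p6, written 5′ to 3′ on the gene's strand, with the matched letters in capitals. The Rarb window is chr14:16575477-16575726 on the minus strand, where the capitals mark a direct repeat of hexamers with a spacer of 5 bases from base -53 to base -37 before the start.
Rarb: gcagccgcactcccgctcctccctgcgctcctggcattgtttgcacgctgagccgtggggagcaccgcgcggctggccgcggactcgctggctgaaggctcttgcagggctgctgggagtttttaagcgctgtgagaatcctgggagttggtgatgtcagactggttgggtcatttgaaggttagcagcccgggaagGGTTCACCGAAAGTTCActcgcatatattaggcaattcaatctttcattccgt
The Stra6 window is chr9:58129099-58129348 on the plus strand, with a TCF/LEF match from base -145 to base -139.
Stra6: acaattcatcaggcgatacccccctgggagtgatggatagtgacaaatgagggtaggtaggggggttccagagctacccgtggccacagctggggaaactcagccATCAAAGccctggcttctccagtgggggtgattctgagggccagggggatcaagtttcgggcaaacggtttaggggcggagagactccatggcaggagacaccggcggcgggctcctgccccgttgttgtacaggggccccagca
The Rbp4 window is chr19:38125322-38125571 on the minus strand, with a TCF/LEF match from base -30 to base -24.
Rbp4: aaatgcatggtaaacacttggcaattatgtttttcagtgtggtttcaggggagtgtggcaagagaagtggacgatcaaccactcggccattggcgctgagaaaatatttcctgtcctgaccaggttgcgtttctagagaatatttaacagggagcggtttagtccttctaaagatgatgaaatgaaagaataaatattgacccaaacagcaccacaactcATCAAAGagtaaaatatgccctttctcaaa
RefSeq windows were found for 7 of the 9 genes, in 14 windows in all. The windows searched also ran 50 bases past the start. Of the 14, 1 held a direct repeat (Rarb) and 2 held the TCF/LEF letters, which were 1 of 4 windows of Stra6 and 1 of 2 of Rbp4. The hexamer searched, on both strands, was AGGTCA. The close variant AGTTCA was allowed in its place, as was GGTTCA, and so was the variant GGGTCA, each as 1 member of a direct repeat with a spacer of 1, 2 or 5 bases. Of all 32851 windows, 0.0974% held a repeat with a spacer of 5 and 0.588% a repeat with any of these spacers. The TCF/LEF letters were ATCAAAG or, with another first base, TTCAAAG, and were found in 8.65% of all windows. These matches describe the letters of the windows and are not evidence of binding.

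The kept libraries held 5258 cells in E14.5 gof, 6577 in E14.5 control, 6991 in E11.5 gof and 6503 in E11.5 control, with median UMI counts per cell of 14013, 12850, 5643 and 8172 in that order. Pairs of libraries shared between 7 and 13 cell barcodes. The meningeal-like class had 86 cells in E14.5 gof, 58 in E14.5 control, 1197 in E11.5 gof and 701 in E11.5 control, against 5011, 6304, 4842 and 5269 neural cells. The median meningeal-like cell carried 11, 9, 7 and 7 of the 12 markers, and no more than 2 markers of any other class. The summed level of the 12 markers was 2970 to 8020 CPM in the meningeal-like cells of the 4 libraries, against 34.6 to 75.3 CPM in neural cells, where none of the 12 was at 0. Genes from the marker lists of neural classes were also detected in the meningeal-like class. The 8 progenitor markers, none at 0, summed there to 1130 CPM in E14.5 gof, 1680 CPM in E14.5 control, 320 CPM in E11.5 gof and 913 CPM in E11.5 control, against 2540, 2020, 1530 and 1790 CPM in neural cells. The 10 hem markers, of which Gdf7 was at 0, summed there to 540, 1230, 681 and 1040 CPM, against 334, 701, 1090 and 1370 CPM in neural cells. At E14.5 the hem sums were thus higher in meningeal-like than in neural cells, so that list was not particular to neural cells. The progenitor and hem sums differed between the genotypes, and their part in the meningeal-like levels was not tested. At the gate's minimum lay 4, 7, 88 and 29 meningeal-like cells, and 35, 85, 88 and 79 cells fell 1 marker short of it. Levels below are CPM, the UMIs of a gene scaled to all UMIs of the cells named, with exact 95% Poisson intervals, and shares of cells carry exact 95% binomial (Clopper-Pearson) intervals. Both kinds of interval cover counting error only, and 3′ UMI levels are compared within a gene, not between genes.

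Across the 4 libraries, Aldh1a2, Rarb and Rara were higher in meningeal-like than in neural cells, and the other 6 genes did not pass the test. The test was edgeR's quasi-likelihood test on summed counts of the 2 classes with the library as a block, with Benjamini-Hochberg adjustment over 14914 genes. Of all genes tested, 14.1% were called higher and 14.1% lower in meningeal-like cells, beside 3 of the 9 higher and 0 lower. The median log2 fold of all genes was -0.06. Since the 2 classes of a library come from the same embryos, the block pairs them by library, and the p-values measure the spread between these 4 pools at 2 ages.

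**Figure D1:**
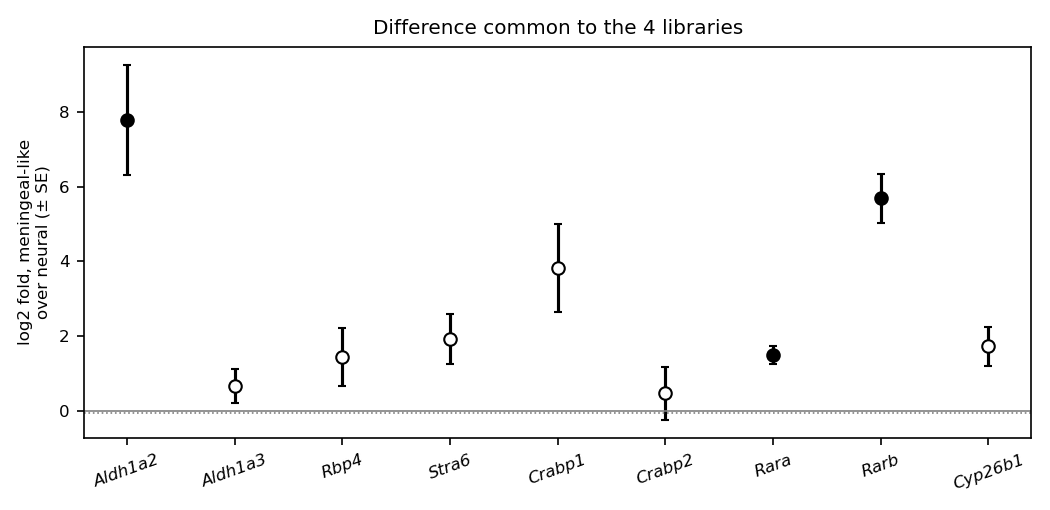
Fitted log2 fold of meningeal-like over neural cells for each gene, with its standard error, over 4 libraries; filled points have an adjusted p under 0.05 and the dotted line is the median of all genes. Aldh1a2 at 7.79, Rarb at 5.68 and Rara at 1.49 are filled, and Crabp2 at 0.47 lies closest to 0.

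**Figure D2:**
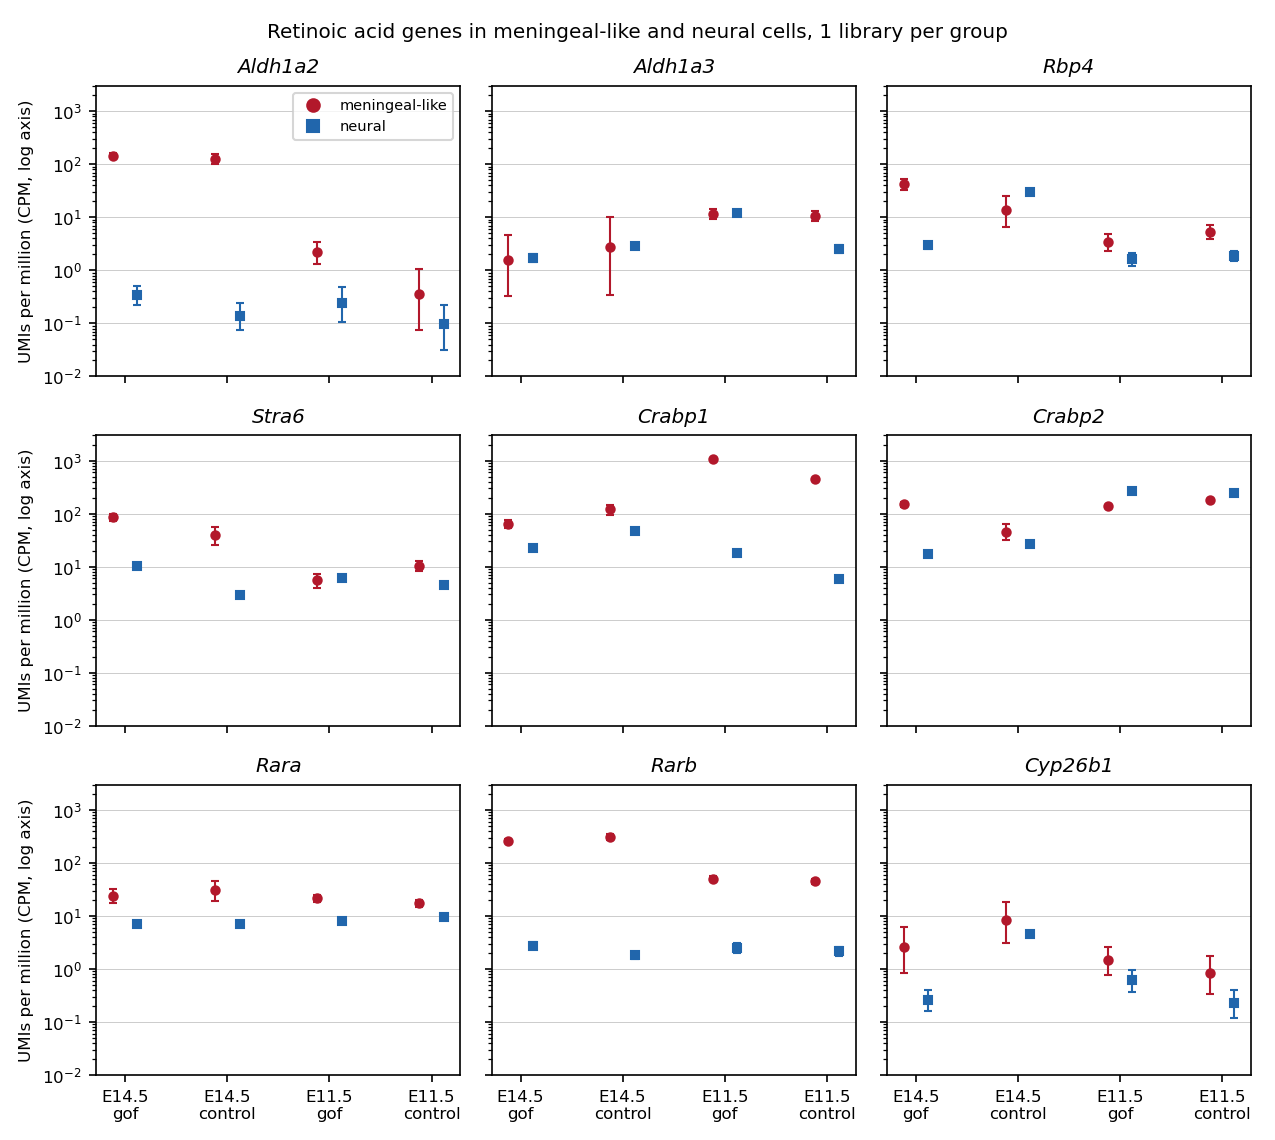
Level of each gene (CPM, log axis) in meningeal-like cells (red circles) and neural cells (blue squares) of each library, with 95% Poisson intervals. Aldh1a2 stands at 146 and 128 CPM in the meningeal-like cells of the E14.5 libraries and at 2.20 CPM or less in the other 6 points.

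Aldh1a2, the enzyme that makes most retinoic acid in the early embryo, was concentrated in meningeal-like cells at the later age. It had 146 CPM (95% interval 129 to 164) in E14.5 gof, 128 CPM (103 to 157) in E14.5 control, 2.20 CPM (1.30 to 3.47) in E11.5 gof and 0.359 CPM (0.0739 to 1.05) in E11.5 control meningeal-like cells. In neural cells of the same libraries it had 0.340, 0.141, 0.246 and 0.0956 CPM. Both E14.5 libraries were high in this class and both E11.5 libraries low, and the meningeal-like value lay above the neural value in 4 of 4 libraries. In E11.5 control that order rests on 3 meningeal-like and 5 neural UMIs, and the meningeal-like interval includes the neural value. The fitted log2 fold was 7.79 (SE 1.47, adjusted p = 0.0136 by edgeR's quasi-likelihood test). Without the E14.5 gof library the adjusted p for Aldh1a2 by the same edgeR test was 0.0913 at a log2 fold of 5.96, and without the E14.5 control library 0.0808 at a log2 fold of 6.23.

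The E14.5 over E11.5 ratio of Aldh1a2 in meningeal-like cells was 66.3 (counting interval 41.2 to 114) in gof and 357 (118 to 1760) in control, where the E11.5 library held 3 UMIs. Of all Aldh1a2 UMIs of a library, 90.3% in E14.5 gof and 86.8% in E14.5 control lay in the meningeal-like cells, which were 1.64% and 0.882% of the kept cells. After thinning each cell to 3000 UMIs, 27.4% (18.2% to 38.2%) of E14.5 gof and 14 of 56 (14.4% to 38.4%) E14.5 control meningeal-like cells had an Aldh1a2 UMI. The thinned shares were 0.702% (0.303% to 1.38%) in E11.5 gof and 0.144% (0.00364% to 0.799%) in E11.5 control. Without thinning the shares were 51.2%, 29.3%, 1.25% and 0.428%, at median depths of 16372, 10078.5, 6013 and 8022 UMIs. Thinned vessel and blood cells, a class that should lack the gene, had a share of 0 in every library, with exact upper limits of 7.11%, 6.72%, 0.894% and 1.53%. These limit cells with a UMI, not cells that express the gene.

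Between genotypes the Aldh1a2 level in E14.5 meningeal-like cells differed by a ratio of 1.14 (0.897 to 1.46), whose interval includes no difference. Its log2 ratio was 0.19, against 0.88 under a stricter cell filter (2000 genes or more, 5% mitochondrial UMIs or fewer) and -0.08 with 1 more marker required by the gates. The genes whose pattern over 35 sums of library and class was most like that of Aldh1a2 were Gjb6 (r = 0.972), Slc22a6 (r = 0.959) and Rarres2 (r = 0.925). These are Pearson correlations of log2(CPM + 1) between sums of at least 50 cells that share libraries and depth, given as a description.

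Aldh1a3, a second retinaldehyde dehydrogenase, showed the opposite order of ages in the CPM of meningeal-like cells, which few cells carried. In meningeal-like cells it had 1.57 CPM in E14.5 gof, 2.78 CPM in E14.5 control, 11.6 CPM (9.39 to 14.2) in E11.5 gof and 10.8 CPM (8.65 to 13.2) in E11.5 control. In neural cells it had 1.74, 2.94, 11.9 and 2.53 CPM. The E11.5 libraries exceeded the E14.5 libraries of the same genotype in meningeal-like cells, while in neural cells E11.5 gof stood above the other 3 libraries. Its UMIs sat in few cells, for 10 cells held 94.7% of the meningeal-like UMIs of E11.5 gof and 93.3% of those of E11.5 control, in 15 and 16 cells with any UMI. The cell with the most held 38 of the 95 UMIs in E11.5 gof and 42 of the 90 in E11.5 control. Thinned shares of meningeal-like cells were 0% (up to 4.30%) in E14.5 gof and 1.79% (0.0452% to 9.55%) in E14.5 control. At E11.5 they were 0.614% (0.247% to 1.26%) in gof and 0.863% (0.32% to 1.87%) in control, and the intervals overlap. Unthinned shares were 3.49% and 3.45% at E14.5 and 1.25% and 2.28% at E11.5, so shares did not show that order of ages. In E11.5 neural cells 89 gof and 72 control cells had an Aldh1a3 UMI, and 10 cells held 54.6% and 39.4% of the UMIs. The class fold did not pass edgeR's test (log2 0.66, SE 0.454, adjusted p = 0.318).

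Rbp4, the retinol carrier of blood, was lower in E14.5 gof than in E14.5 control neural cells, at a ratio of 0.0988 (0.0859 to 0.113). Neural cells had 2.96 CPM (2.59 to 3.37) in E14.5 gof, against 29.96 CPM (28.9 to 31.1) in E14.5 control, and 1.63 CPM in E11.5 gof, against 1.88 CPM in E11.5 control. The E14.5 control library thus stood above the other 3, with a log2 ratio of gof over control of -2.97. Meningeal-like cells ordered the E14.5 genotypes the other way, with 42.0 CPM (33.3 to 52.2) in E14.5 gof, against 13.9 CPM (6.67 to 25.6) in E14.5 control, a ratio of 3.02 (1.56 to 6.53). At E11.5 they had 3.42 CPM in gof and 5.38 CPM in control. Between the classes Rbp4 did not pass edgeR's test (adjusted p = 0.208), and meningeal-like cells were higher in 3 of 4 libraries, the exception being E14.5 control.

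The Rbp4 UMIs of E14.5 control came mostly from progenitors, as 70.2% of the library's UMIs of this gene lay in progenitor-like cells. Progenitor-like cells had 5.28 CPM in E14.5 gof, against 57.6 CPM in E14.5 control, from 167 and 2012 UMIs, a ratio of 0.0916 (0.0778 to 0.107). Hem-like cells had 2.78 CPM in E14.5 gof, against 29.3 CPM in E14.5 control, and intermediate progenitor-like cells 1.81 CPM, against 28.5 CPM. In glutamatergic neuron-like cells the values were 0.988 CPM in E14.5 gof and 6.497 CPM in E14.5 control. Each of these 4 classes was thus lower in the gof library. In thinned progenitor-like cells 1.85% (1.30% to 2.55%) had an Rbp4 UMI in E14.5 gof, against 13.1% (11.8% to 14.6%) in E14.5 control. The shares were 6.19% and 39.6% without thinning. Among thinned vessel and blood cells 0 had one, with an exact upper limit of 7.11% in gof and 6.72% in control.

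The lower Rbp4 level of the E14.5 gof library was not limited to cells with reporter. In tdTomato-positive neural cells, those with at least 2 tdTomato UMIs, it had 2.06 CPM in E14.5 gof, against 13.0 CPM in E14.5 control. In tdTomato-negative neural cells it had 3.21 CPM, against 33.6 CPM. Both states were thus lower in the gof library, and no test separates the 2 differences. Reporter calls depend on depth and on free RNA, as tdTomato had 77.1 CPM in E14.5 gof and 56.3 CPM in E14.5 control neural cells, and 21.5 and 43.4 CPM in vessel and blood cells. A negative cell may have had Cre activity. The genes most like Rbp4 in pattern were Hey2 (r = 0.853), Tnc (r = 0.847) and Vcam1 (r = 0.843), over the same 35 sums.

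**Figure D3:**
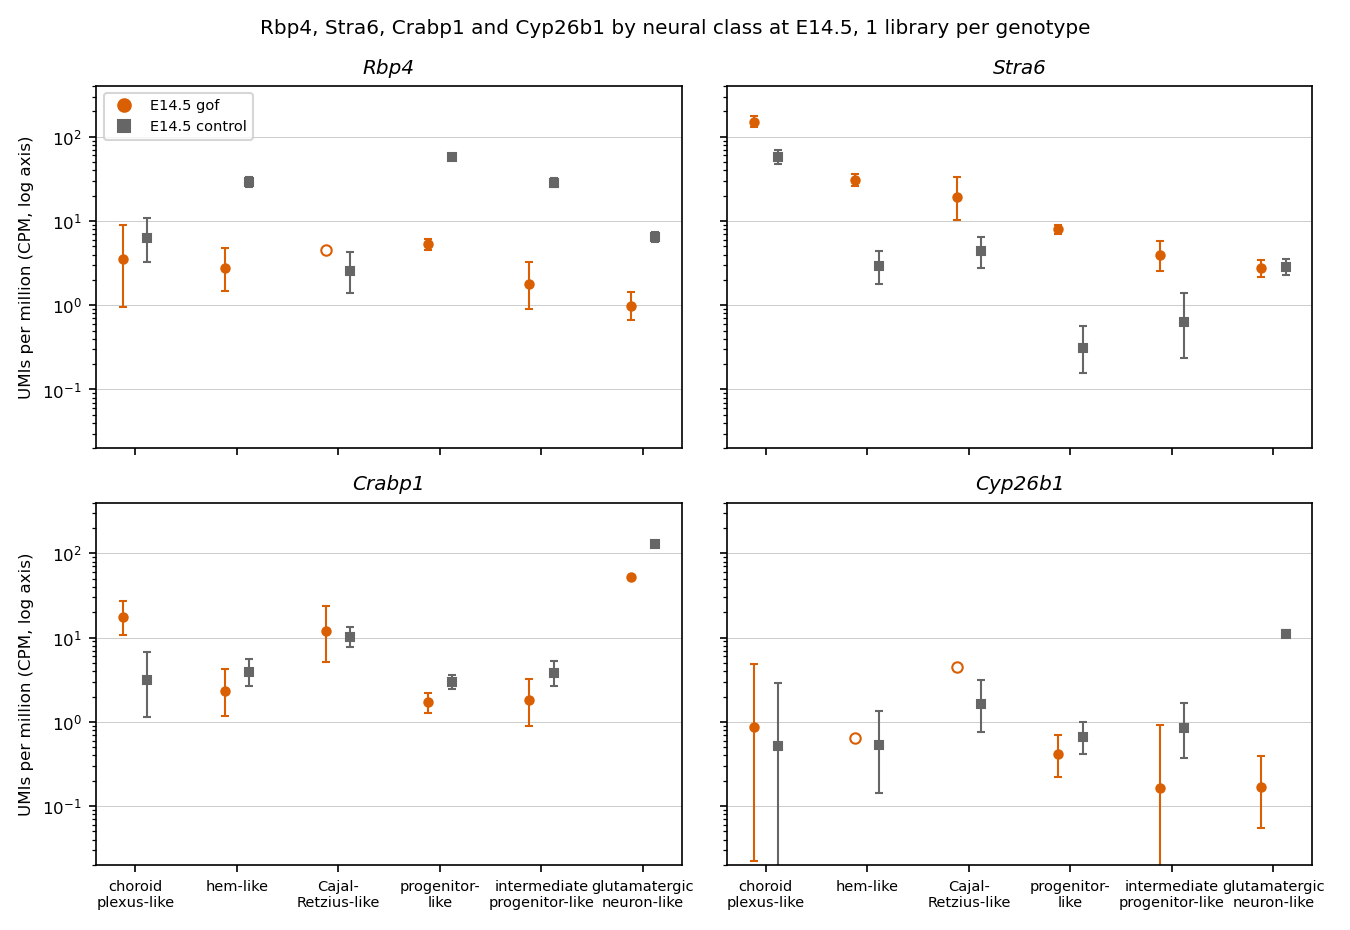
Levels (CPM, log axis) of Rbp4, Stra6, Crabp1 and Cyp26b1 in 6 neural classes at E14.5, gof in orange circles and control in grey squares, with 95% Poisson intervals; open symbols are classes with 0 UMIs, drawn at the level of 3 UMIs. Progenitor-like cells stand at 5.28 CPM in gof against 57.6 CPM in control for Rbp4, and at 7.99 CPM against 0.315 CPM for Stra6.

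Stra6, the receptor that takes up retinol from Rbp4, had the reverse order in E14.5 neural cells. It had 10.4 CPM (9.70 to 11.2) in E14.5 gof, against 2.87 CPM (2.53 to 3.23) in E14.5 control, and 6.09 CPM in E11.5 gof, against 4.55 CPM in E11.5 control. The gof library was the higher one at both ages, with a log2 ratio of 1.56 at E14.5. The difference was found in hem-like cells, with 30.5 CPM (25.7 to 36.0) in E14.5 gof, against 2.89 CPM (1.81 to 4.37) in E14.5 control. Progenitor-like cells had 7.99 CPM, against 0.315 CPM, and choroid plexus-like cells 151 CPM, against 57.6 CPM. In glutamatergic neuron-like cells the values were 2.76 CPM in E14.5 gof and 2.85 CPM in E14.5 control.

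The Stra6 levels of the E14.5 genotypes lay apart in tdTomato-positive neural cells and close together in negative ones, and the 2 differences were not tested against each other. Positive neural cells had 40.9 CPM (37.9 to 44.1) in E14.5 gof, against 8.62 CPM (7.26 to 10.2) in E14.5 control. Negative neural cells had 1.70 CPM in E14.5 gof, against 1.62 CPM in E14.5 control. Within progenitor-like cells, 303 positive gof cells held 243 Stra6 UMIs (49.5 CPM), the 76 positive control cells held 0 (up to 2.64 CPM), and the negative cells had 0.374 CPM in gof and 0.328 CPM in control. Within hem-like cells, negative cells also differed, with 19.3 CPM in E14.5 gof, against 1.55 CPM in E14.5 control. At E11.5 positive neural cells had 9.89 CPM in gof and 9.77 CPM in control. After thinning, 9.44% (7.65% to 11.49%) of positive E14.5 gof neural cells and 2.08% (1.29% to 3.16%) of positive E14.5 control neural cells had a Stra6 UMI (24.8% and 8.58% without thinning). Vessel and blood cells had thinned shares of 4.0% (0.488% to 13.7%) in E14.5 gof and 0% (up to 6.72%) in E14.5 control, at unthinned shares of 11.3% and 5.0%. Those intervals overlap the shares of positive neural cells, so the shares did not separate from that background. In CPM, vessel and blood cells had 9.10 (4.54 to 16.3) in E14.5 gof and 7.72 (3.33 to 15.2) in E14.5 control, below the level of positive gof neural cells and overlapping that of positive control neural cells.

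**Figure D4:**
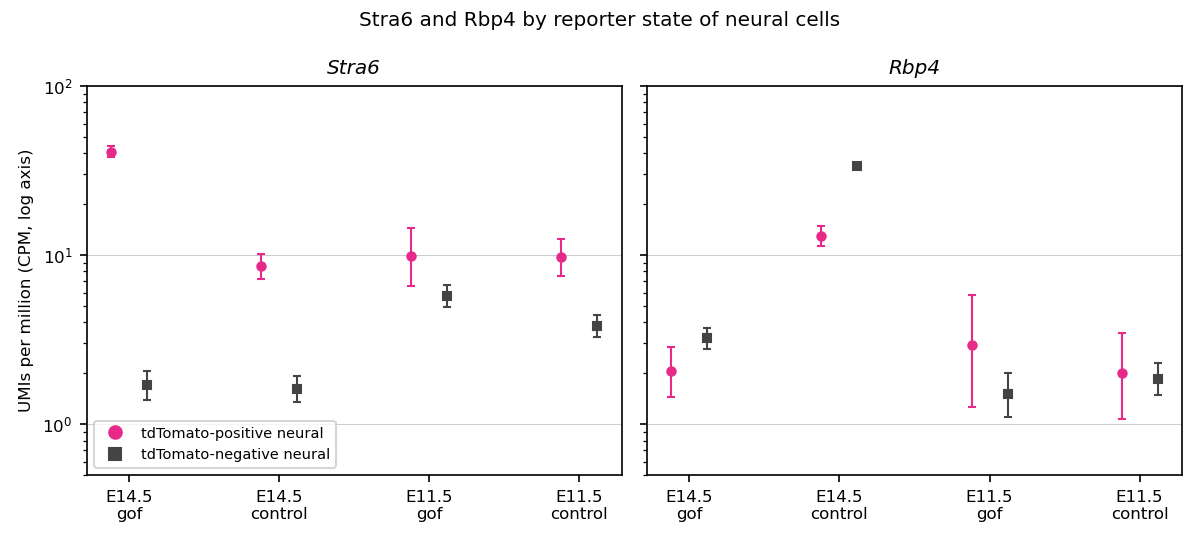
Levels (CPM, log axis) of Stra6 and Rbp4 in tdTomato-positive (pink circles) and tdTomato-negative (dark squares) neural cells of each library, with 95% Poisson intervals. For Stra6 the positive cells of E14.5 gof, at 40.9 CPM, stand above the positive cells of E14.5 control, at 8.62 CPM; for Rbp4 both states are lower in E14.5 gof.

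In meningeal-like cells Stra6 had 85.0 CPM (72.4 to 99.1) in E14.5 gof, 39.0 CPM (25.9 to 56.3) in E14.5 control, 5.50 CPM (4.01 to 7.35) in E11.5 gof and 10.3 CPM (8.22 to 12.7) in E11.5 control. Both E14.5 libraries exceeded both E11.5 libraries, and the order of the genotypes turned between the ages. The ratio of gof over control was 2.18 (1.45 to 3.39) at E14.5 and 0.535 (0.364 to 0.776) at E11.5. Against neural cells the log2 fold was 1.93 (SE 0.665, adjusted p = 0.0755 by edgeR's quasi-likelihood test), higher in 3 of 4 libraries. Bmp7, which encodes a BMP ligand, was the gene most like Stra6 in pattern (r = 0.842), followed by Dcdc2a (r = 0.826) and Acss3 (r = 0.814). On the opposite strand Ccdc33 overlaps Stra6, and no source used here states whether the counting used strand. Ccdc33 had at most 2.78 CPM in the neural and meningeal-like cells of any library, and its part in the Stra6 counts was not tested.

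Crabp1, a cytoplasmic retinoic acid binding protein, was highest in E11.5 meningeal-like cells. It had 64.0 CPM (53.2 to 76.4) in E14.5 gof, 119.7 CPM (95.7 to 148) in E14.5 control, 1064 CPM (1042 to 1087) in E11.5 gof and 458 CPM (444 to 473) in E11.5 control meningeal-like cells. In neural cells it had 22.1, 47.5, 17.9 and 5.91 CPM. Meningeal-like cells were higher in 4 of 4 libraries, with a log2 fold of 3.82 (SE 1.17) that did not pass edgeR's quasi-likelihood test (adjusted p = 0.0543). This gene lies near the threshold, and 4 of 10 alternative settings called it, with adjusted p from 0.00234 to 0.133 in the same edgeR or a DESeq2 test.

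The classes that held Crabp1 differed between the ages. Of its UMIs, 90.8% in E11.5 gof and 89.5% in E11.5 control lay in meningeal-like cells, against 6.64% in E14.5 gof and 1.91% in E14.5 control. At E14.5 most lay in glutamatergic neuron-like cells, 82.9% in gof and 91.8% in control. Those neurons had 51.9 CPM in E14.5 gof, against 130.7 CPM in E14.5 control. After thinning, 10.5% (9.16% to 12.0%) of E14.5 gof and 21.6% (19.8% to 23.5%) of E14.5 control glutamatergic neuron-like cells had a Crabp1 UMI (27.1% and 42.6% without thinning). In thinned meningeal-like cells the shares were 15.5%, 14.3%, 82.8% (80.5% to 85.0%) and 65.3% (61.7% to 68.9%) in E14.5 gof, E14.5 control, E11.5 gof and E11.5 control (48.8%, 44.8%, 93.2% and 85.3% without thinning), against 0%, 0%, 1.70% and 0.417% of vessel and blood cells.

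Genotype ratios of Crabp1 also turned with age in both classes. In neural cells the log2 ratio of gof over control was -1.07 at E14.5 and 1.45 at E11.5. In meningeal-like cells it was -0.89 at E14.5 and 1.22 at E11.5. The E11.5 neural value fell short of 1.5-fold, at 0.40, under a stricter cell filter (2000 genes or more, 5% mitochondrial UMIs or fewer). In the E11.5 vessel and blood cells Crabp1 had 5.12 CPM in gof, against 1.76 CPM in control, and S100a6, a gene high in meningeal-like cells, had 6.24 CPM in gof, against 2.56 CPM in control neural cells. The summed meningeal markers of neural cells were 75.3 CPM in E11.5 gof, against 55.2 CPM in E11.5 control, and their part in the Crabp1 difference was not tested. Glipr2 (r = 0.755), S100a10 (r = 0.75) and Ebf1 (r = 0.729) were most like Crabp1 in pattern.

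Crabp2, the binding protein that hands retinoic acid to its receptors, was high in E11.5 neural cells of both genotypes. Neural cells had 17.4 CPM in E14.5 gof, 26.4 CPM in E14.5 control, 268.3 CPM in E11.5 gof and 249.2 CPM in E11.5 control. Meningeal-like cells had 150.6 CPM (134 to 169), 45.9 CPM (31.6 to 64.5), 137.5 CPM (130 to 146) and 178.4 CPM (170 to 188) in the same libraries. The 2 classes therefore differed in opposite directions at the 2 ages, and the common fold did not pass edgeR's test (log2 0.47, SE 0.713, adjusted p = 0.661). Glutamatergic neuron-like cells had 12.8 CPM in E14.5 gof, 21.2 CPM in E14.5 control, 839 CPM in E11.5 gof and 821 CPM in E11.5 control. Cajal-Retzius-like cells, the early neurons that leave the hem, had 98.9, 188, 422 and 348 CPM.

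Of the 6 named neural classes, Cajal-Retzius-like cells had the highest Crabp2 level in both E14.5 libraries, and their thinned shares with a UMI were 26.2% (13.9% to 42.0%) in gof and 37.9% (33.2% to 42.8%) in control (57.1% and 69.6% without thinning). Thinned vessel and blood cells had shares of 0% (up to 7.11%) in gof and 5.66% (1.18% to 15.7%) in control, and both intervals lie below that of the Cajal-Retzius-like cells of the same library (5.66% and 8.33% without thinning). In E14.5 meningeal-like cells the gof over control ratio of Crabp2 was 3.28 (2.28 to 4.86), and in neural cells the log2 ratio was -0.58. Positive E14.5 neural cells had 30.9 CPM in gof, against 72.0 CPM in control, and negative ones 13.6 CPM, against 16.5 CPM. Only 42 Cajal-Retzius-like cells were found in E14.5 gof, against 414 in E14.5 control, so that the class mix of positive cells differed, and its part in this difference was not tested. Mthfsl and Dynlt1c (r = 0.855 each) and Lhx5 (r = 0.821) were the genes most like Crabp2 in pattern.

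Rara, a receptor used by most cells, was moderately higher in meningeal-like cells of every library than in its neural cells as a whole. It had 24.1 CPM (17.7 to 32.2) in E14.5 gof, 30.6 CPM (19.2 to 46.3) in E14.5 control, 21.4 CPM (18.3 to 24.8) in E11.5 gof and 17.2 CPM (14.51 to 20.3) in E11.5 control meningeal-like cells. In neural cells it had 6.98, 7.19, 7.90 and 9.56 CPM. The log2 fold was 1.49 (SE 0.246, adjusted p = 0.00942 by edgeR's quasi-likelihood test), and 4 of 4 libraries were higher. The neural value is an average over unlike classes. In E14.5 gof and control, choroid plexus-like cells had 25.5 and 23.0 CPM, and 31 and 32 GABAergic neuron-like cells 41.5 and 39.0 CPM. Progenitor-like cells had 7.01 and 5.38 CPM, and glutamatergic neuron-like cells 6.30 and 7.42 CPM. Vessel and blood cells also held Rara, at 27.3 CPM in E14.5 gof and 18.3 CPM in E14.5 control. Their thinned shares were 6.0% and 3.77%, against 8.33% and 10.7% of meningeal-like cells (32.1% and 26.7% against 37.2% and 22.4% without thinning). The intervals of these thinned shares overlap, so shares of cells with Rara at E14.5 did not separate meningeal-like cells from vessel and blood cells. At E11.5 the thinned shares were 6.67% (5.29% to 8.27%) of meningeal-like against 2.43% (1.17% to 4.43%) of vessel and blood cells in gof. In control they were 5.47% (3.90% to 7.43%) against 0.833% (0.101% to 2.98%), and in neither library do the intervals overlap. Of those vessel and blood cells 231 of 415 in gof and 163 of 240 in control were erythroid, with Rara at 1.71 and 0 CPM. Endothelial cells had 20.02 CPM (13.69 to 28.26) in E11.5 gof and 14.41 CPM (6.91 to 26.5) in E11.5 control, and these intervals overlap the meningeal-like ones. The endothelial thinned share in E11.5 gof, 3.39% (0.931% to 8.45%), also overlaps the meningeal-like share. The part of erythroid cells in the E11.5 separation was not tested.

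Rarb, the receptor whose promoter holds the direct repeat printed above, was high in meningeal-like cells at E14.5. It had 264 CPM (241 to 288) in E14.5 gof, 305 CPM (266 to 348) in E14.5 control, 50.4 CPM (45.7 to 55.6) in E11.5 gof and 45.2 CPM (40.7 to 49.96) in E11.5 control. Neural cells had 2.76, 1.82, 2.49 and 2.16 CPM. All 4 meningeal-like values exceeded all 4 neural values, with a log2 fold of 5.68 (SE 0.66, adjusted p = 0.00367 by edgeR's quasi-likelihood test). The E14.5 over E11.5 ratio was 5.23 (4.58 to 5.97) in gof and 6.75 (5.68 to 7.99) in control. The genotypes differed by a ratio of 0.866 (0.737 to 1.02) at E14.5, whose interval includes no difference.

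After thinning, 53.6% (42.4% to 64.5%) of E14.5 gof, 53.6% (39.7% to 67.0%) of E14.5 control, 14.4% (12.4% to 16.6%) of E11.5 gof and 16.6% (13.9% to 19.5%) of E11.5 control meningeal-like cells had a Rarb UMI (88.4%, 79.3%, 26.1% and 32.8% without thinning). Vessel and blood cells had thinned shares of 0%, 1.89%, 0.487% and 0.417%. Without thinning, 48.8% of E14.5 gof and 27.6% of E14.5 control meningeal-like cells had UMIs of both Aldh1a2 and Rarb. At E11.5 these unthinned shares were 0.501% in gof and 0.143% in control. The median depths of the meningeal-like cells were 16372, 10078.5, 6013 and 8022 UMIs in that order, and the part of depth in the joint shares was not tested. After thinning, Aldh1a2 alone was found in 23 of 84 E14.5 gof and 14 of 56 E14.5 control meningeal-like cells. Within E14.5 gof the 44 meningeal-like cells with an Aldh1a2 UMI had 299 CPM of Rarb and the 42 without one 221 CPM. Within E14.5 control the 17 cells with one had 416 CPM and the 41 without one 269 CPM, and cells of 1 pool are no replicates. Top2b overlaps Rarb on the opposite strand and had 131, 195, 67.5 and 84.3 CPM in meningeal-like cells and 196, 292, 88.8 and 96.9 CPM in neural cells. Its part in the Rarb counts was not tested. Lrrc17 (r = 0.925), Crispld1 (r = 0.921) and Osr1 (r = 0.914) were most like Rarb in pattern.

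Cyp26b1, the enzyme that clears retinoic acid, was found mainly in neurons of the E14.5 control library. Neural cells had 0.262 CPM in E14.5 gof, against 4.51 CPM in E14.5 control, and 0.615 CPM in E11.5 gof, against 0.230 CPM in E11.5 control. Glutamatergic neuron-like cells had 0.170 CPM (0.0553 to 0.398) in E14.5 gof, against 11.2 CPM (10.1 to 12.4) in E14.5 control, from 5 and 353 UMIs in 4 and 121 cells, a ratio of 0.0152 (0.00491 to 0.0359). Both reporter states of these neurons were lower in gof, with 0.630 CPM in positive E14.5 gof cells, against 41.5 CPM in positive E14.5 control cells, and 0.115 CPM in negative gof cells, against 7.35 CPM in negative control cells. The classes held 1915 and 1979 cells, so cell number was similar.

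Thinning left 0 of 1885 E14.5 gof glutamatergic neuron-like cells with a Cyp26b1 UMI, with an exact upper limit of 0.196% on cells with a UMI at that depth, and 2.08% (1.498% to 2.81%) of those of E14.5 control. The shares were 0.209% and 6.11% without thinning, and no vessel and blood cell of either library had one. After thinning, the exact upper limits of vessel and blood cells were 7.11% in gof and 6.72% in control. Those limits lie above the 2.08% of the control neurons, so the shares did not separate from that background. As whole neural cells stayed under 10 CPM in both E14.5 libraries, Cyp26b1 is not in the counts of genes past 1.5-fold. Meningeal-like cells had 2.62 CPM (0.852 to 6.12) in E14.5 gof, 8.35 CPM (3.06 to 18.2) in E14.5 control, 1.47 CPM in E11.5 gof and 0.837 CPM in E11.5 control. These levels rest on 5, 6, 12 and 7 UMIs in 2, 2, 9 and 7 meningeal-like cells. The E14.5 genotypes' intervals overlap there, and the meningeal-like value was above the neural one in 4 of 4 libraries, with a log2 fold of 1.73 (SE 0.519) that did not pass edgeR's test (adjusted p = 0.0518).

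**Figure D5:**
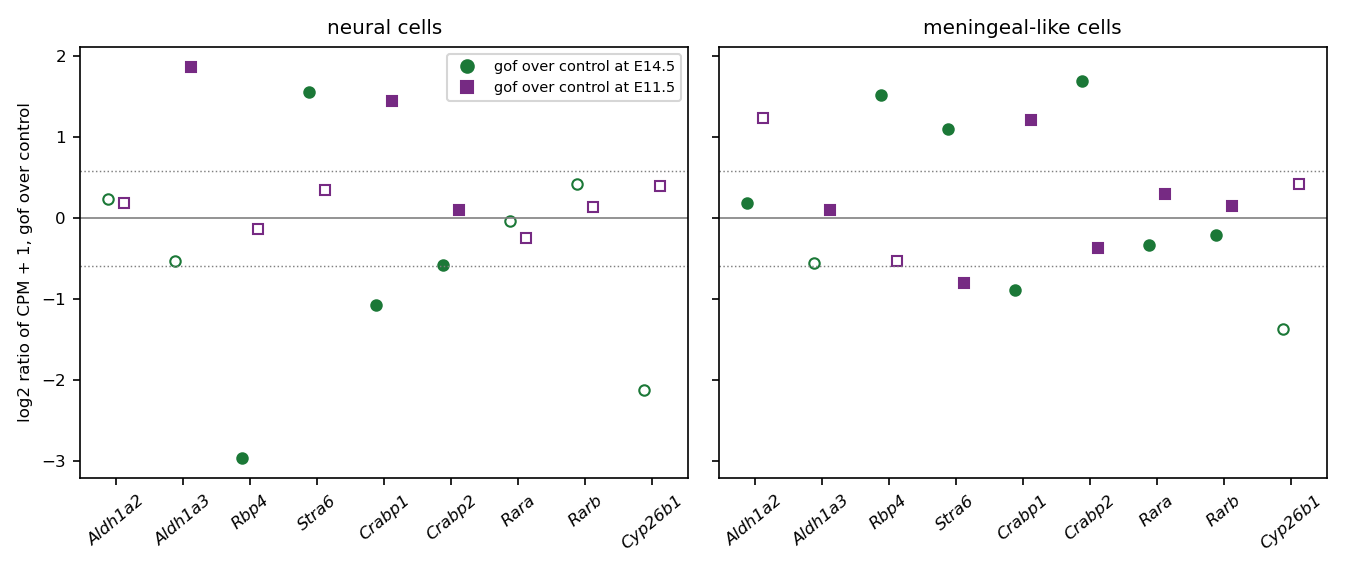
log2 ratio of gof over control, on CPM + 1, for each gene in neural cells (left) and meningeal-like cells (right), E14.5 in green circles and E11.5 in purple squares; open symbols are genes under 10 CPM in both libraries and dotted lines mark 1.5-fold. In E14.5 neural cells Rbp4 lies at -2.97 and Stra6 at 1.56, and Crabp1 lies on opposite sides of 0 at the 2 ages.

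For the 9 genes together, gof was set against control in each class, calling a gene past 1.5-fold on log2(CPM + 1) among genes with at least 10 CPM in either library. The 1 CPM pseudocount understates the ratios of low genes. In E14.5 neural cells, where 2.89% of 9648 genes were past it higher and 7.94% lower (3.66% and 5.47% after TMM scaling of the libraries), 1 of 4 genes read was higher (Stra6) and 2 were lower (Rbp4 and Crabp1). In E14.5 tdTomato-positive cells of all classes 1 of 5 was higher (Stra6) and 4 were lower (Rbp4, Crabp1, Crabp2 and Rara), beside 6.86% and 16.7% of all genes (9.41% and 11.6% after TMM scaling). The Rara log2 ratio of -0.60 there was -0.47 after TMM scaling, short of 1.5-fold. In whole E14.5 libraries 1 of 4 was higher and 2 were lower, beside 3.13% and 8.1% (3.76% and 5.89% after TMM scaling). The median log2 ratio of the genes read in E14.5 neural cells was -0.82, against -0.09 for all genes. Of 9 stress genes read in those cells 6 were past 1.5-fold lower in gof, with a list median of -0.74, and their part in the differences was not tested.

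In E14.5 meningeal-like cells 3 of 7 genes read were higher (Crabp2, Rbp4 and Stra6) and 1 was lower (Crabp1), beside 8.86% and 21.0% of all genes (13.5% and 14.3% after TMM scaling), with a median of 0.19, against -0.14 for all genes. The 3 higher levels, and their ratios given above, rest on few cells. In gof 10 of the 86 cells held 58.9%, 73.8% and 63.6% of the UMIs of Crabp2, Rbp4 and Stra6. Control had 33, 10 and 28 UMIs of them, in 14, 6 and 15 cells. Thinned shares in gof and control were 19.05% against 14.3% for Crabp2, 9.52% against 3.57% for Rbp4 and 17.9% against 12.5% for Stra6. For each gene the 95% intervals of these shares overlap. Markers within this class moved with the genotype, as 5 of 6 arachnoid genes read and 4 of 5 dural genes were past 1.5-fold higher in gof. Cldn11, an arachnoid barrier claudin, had 559 CPM in E14.5 gof, against 189 CPM in E14.5 control, and Slc6a13 197 CPM, against 79.3 CPM. Dural Dkk2 had 88.7 CPM in gof, against 8.35 CPM in control, and Mgp 55.6 CPM, against 8.35 CPM. Of 4 pial genes read 1 was higher and 0 were lower. The summed meningeal markers were 8020 CPM in gof and 4620 CPM in control, none of the 12 at 0, and the progenitor and hem markers given above were lower in gof. The part of these differences in makeup was not tested.

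At E11.5, neural cells had 2 of 3 genes read higher in gof (Aldh1a3 and Crabp1) and 0 lower, beside 3.51% and 3.1% of all genes (2.88% and 5.07% after TMM scaling). The Aldh1a3 ratio was 4.72 (3.87 to 5.80), with 11.7 CPM in gof hem-like cells, against 2.16 CPM in control hem-like cells, and 10.1 CPM in gof progenitor-like cells, against 2.41 CPM in control. That ratio leans on few cells, as 10 cells held 54.6% of the gof and 39.4% of the control neural UMIs. Thinned shares of neural cells with an Aldh1a3 UMI were 1.17% (0.87% to 1.53%) in gof and 0.636% (0.438% to 0.892%) in control. Vessel and blood cells had 0.973% (0.266% to 2.47%) and 0.833% (0.101% to 2.98%). Without thinning the shares were 1.84% and 1.37%, against 1.69% and 1.25%. The thinned intervals overlap, so these shares did not separate from that background. In meningeal-like cells 1 of 6 was higher (Crabp1) and 1 lower (Stra6), beside 4.44% and 13.1% (9.21% and 6.72% after TMM scaling). The Stra6 log2 ratio of -0.80 was -0.56, short of 1.5-fold, with no doublets removed, and that of Aldh1a3, 0.10, was 1.71 under the stricter cell filter. In the same cells the summed meningeal markers were 5250 CPM in gof and 2970 CPM in control, progenitor markers 320 and 913 CPM, and hem markers 681 and 1040 CPM. Of 11 stress genes 5 were past 1.5-fold higher in gof there and 0 lower, with a list median of 0.57, and the part of these differences was not tested. Whole E11.5 libraries had 2 of 5 higher (Crabp1 and Aldh1a3) and 0 lower, beside 4.27% and 4.12% (3.83% and 6.05% after TMM scaling), with the meningeal-like share at 17.1% of cells in gof and 10.8% in control. E11.5 tdTomato-positive cells of all classes had 1 of 4 higher (Crabp1) and 0 lower, beside 5.28% and 6.31%.

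Between ages, the median log2 ratio of E14.5 over E11.5 of all genes was 0.53 to 0.61 in the 4 sets below, so that a gene at 0 lies below most genes, and after TMM scaling it was -0.05 to 0.17. In gof neural cells 1 of 4 genes read was higher at E14.5 (Stra6) and 2 were lower (Crabp2 and Aldh1a3), beside 47.8% and 8.47% of all genes (28.6% and 16.7% after TMM scaling), and the Stra6 log2 ratio of 0.69 was 0.36 after TMM scaling. In control neural cells 2 of 3 were higher (Rbp4 and Crabp1) and 1 lower (Crabp2), beside 50.9% and 7.91% (24.7% and 22.0% after TMM scaling). In meningeal-like cells of gof 4 of 8 were higher (Aldh1a2, Rbp4, Stra6 and Rarb) and 2 lower (Crabp1 and Aldh1a3), beside 47.4% and 8.19% (18.8% and 23.4% after TMM scaling). In those of control 5 of 8 were higher (Aldh1a2, Rbp4, Stra6, Rara and Rarb) and 3 lower (Crabp1, Crabp2 and Aldh1a3), beside 47.6% and 9.59% (22.8% and 26.0% after TMM scaling). Of these control log2 ratios, that of Rbp4 (1.23) was 0.33 under the stricter cell filter, that of Rara (0.80) was 0.28 after TMM scaling and that of Aldh1a3 (-1.64) was -0.30 with no doublets removed. No difference from the background is read from these counts, since the background shares move with the scaling. Aldh1a2 at ratios of 66.3 and 357 and Crabp1 at log2 ratios of -4.03 in gof and -1.93 in control stand far from the medians of all genes. The meningeal-like class was 1.64% of kept cells in E14.5 gof and 0.882% in E14.5 control. At E11.5 it was 17.1% in gof and 10.8% in control. Its gate does not separate meninges from other mesenchyme, and the part of makeup in these age ratios was not tested.

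Other genes of the pathway, from lists set by role, were read in the same test of meningeal-like against neural cells. Of 21 genes of retinoid metabolism 13 were tested, of which 5 passed higher and 1 lower, with a list median log2 fold of 0.45. Among all 14914 genes tested, 14.1% passed higher and 14.1% lower. Rdh10, which oxidises retinol to retinaldehyde, had a log2 fold of 1.16 (adjusted p = 0.0242 by edgeR's test). Dhrs3, which reduces retinaldehyde back to retinol, had 2.76 (adjusted p = 0.0172 by edgeR's test).

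Of 11 receptors, coregulators and carriers, all 11 tested, 3 passed higher and 2 lower, with a list median of 0.01. The counts of this paragraph stand beside 14.1% higher and 14.1% lower of all genes tested. The third retinoic acid receptor, Rarg, had 18.4 CPM in E14.5 gof, 27.8 CPM in E14.5 control, 22.6 CPM in E11.5 gof and 14.7 CPM in E11.5 control meningeal-like cells, against 2.68, 2.74, 1.51 and 0.842 CPM in neural cells. Its log2 fold was 3.54 (adjusted p = 0.00122 by edgeR's test). Fabp5, a carrier that can bind retinoic acid, was lower in meningeal-like cells (log2 -0.86, adjusted p = 0.00498 by edgeR's test). Of 14 known target genes 9 were tested, of which 2 passed higher and 4 lower, with a list median of -0.40. Rarres2, which encodes chemerin, had a log2 fold of 8.09 (adjusted p = 0.00527 by edgeR's test), and the homeobox gene Meis2 one of -2.37 (adjusted p = 0.0104 by edgeR's test). Of 11 stress genes 6 were higher in meningeal-like cells and 0 lower, and their part in the class differences was not tested.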

How the data were processed

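The authors deposited a matrix of unnormalised UMI counts for each 10x 3′ v3.1 library. The submitters' processing notes name Cell Ranger 7.1.0 and the build mm10 and state neither the gene annotation nor the strand setting. The matrices hold 6263 barcodes for E14.5 gof, 7844 for E14.5 control, 8677 for E11.5 gof and 7578 for E11.5 control, each of at least 500 UMIs, so cells had been called before deposit. Ages follow the series text (E11.5, E14.5), where titles have E11 and E14.

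A barcode had to show 1000 genes or more and no more than 10% mitochondrial UMIs (5572, 7069, 7593 and 6962 passed). Doublets were taken as the top Scrublet scores, at 0.8% per 1000 barcodes, and left out (314, 492, 602 and 459). Kept cells totalled 81929024, 98309193, 48938550 and 67973329 UMIs. Cells were classed by counts of detected markers from 16 lists. A non-neural class needed at least 4 of its markers and a lead of 2 over the other non-neural classes. Counts of neural markers did not limit a meningeal-like call. Symbols shared by several features (67) were left out of the lists. The 9 genes, the lists and the markers were chosen with earlier results of these data known, and the numbers in the gates were set after class sizes, leading genes and levels of the 9 genes had been seen.

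Counts were summed per library and class. Single values carry exact 95% intervals. Shares were compared after thinning each cell to 3000 UMIs, which left out 262, 280, 649 and 102 cells. Ratios between libraries used log2(CPM + 1) and no test. Meningeal-like and neural sums were compared with edgeR 4.0.16 (R 4.3.3, filterByExpr, TMM, quasi-likelihood) with a library block, because both sums of a library come from 1 pool of embryos. On simulated counts of 14914 genes with 200 changed, edgeR recovered 31% of genes changed 2-fold and 86% of those changed 4-fold, and called 5 unchanged ones. Alternatives were DESeq2 1.42.0, other filters, gates, pseudocounts, scalings and leaving out each library. Python 3.11.15 with scanpy 1.11.5 and scipy 1.17.1 was used.

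All 9 genes are named. Genes of the lists are named only at 50 CPM or more in 1 class of 1 library or past the edgeR threshold, and for each of the 9 that reaches 50 CPM in a class the 3 genes most like it in pattern are named among genes of 50 CPM or more. Promoter windows are RefSeq's in GRCm38.p6. Proteins were not used here. One gene of the metabolism list is not reported here.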

Additional observations from a re-analysis of the deposited data

Results flagged for a closer look

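Crabp1 differed between gof and control in opposite directions at the 2 ages, which is why its values are repeated here as log2 ratios of CPM + 1. In meningeal-like cells the ratio was -0.89 at E14.5 and 1.22 at E11.5, and in neural cells -1.07 at E14.5 and 1.45 at E11.5. In tdTomato-positive cells it was -1.62 at E14.5 and 1.08 at E11.5, and in whole libraries -0.997 at E14.5 and 1.62 at E11.5. Stra6 in meningeal-like cells was the other such case, with 1.11 at E14.5 and -0.80 at E11.5. With 1 library per group none of these differences between ages was tested.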

How the results depend on the processing

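Leaving out the library block, which pairs the classes of a library, edgeR called 3 of the 9 genes (Crabp1, Rara and Rarb), as many as with it (Aldh1a2, Rara and Rarb), and Aldh1a2 did not pass the low-count filter; Crabp2 turned to a log2 fold of -0.25. Leaving out 1 library at a time gave 2 to 4 called genes, log2 folds of -0.35 to 1.07 for Crabp2 and -0.03 to 0.92 for Aldh1a3, which were not called. DESeq2 called 6 genes and gates with 1 more marker 5. Of all genes, edgeR called 4206 of 14914 as reported, 1839 of 13938 without the block, 1872 to 2887 with a library left out, 2066 of 14113 under the stricter cell filter and 4464 of 14754 under the stricter gates, and DESeq2 5259 of 19030. Rara and Rarb were called in all 10 alternatives and Aldh1a2 in 7 of the 9 that tested it. Counts of the 9 genes past 1.5-fold moved as follows. For gof over control at E14.5, the higher count was 3 with no low-count filter in whole libraries and in tdTomato-positive cells (1 reported in each), and 0 in neural cells under the stricter cell filter, stricter gates or TMM scaling (1 reported), while the lower count in meningeal-like cells was 2 under the stricter cell filter, stricter gates or no low-count filter (1 reported). At E11.5, the higher count was 1 in whole libraries with no doublets removed and 1 in neural cells under the stricter cell filter or gates (2 reported in each), and 2 in meningeal-like and tdTomato-positive cells under the stricter cell filter or no low-count filter (1 reported in each), while the lower count in meningeal-like cells was 0 under the stricter cell filter or gates or with no doublets removed (1 reported). For E14.5 over E11.5 in gof neural cells, the higher count was 0 under stricter gates or TMM and 2 with no low-count filter (1 reported), and the lower count 1 under stricter gates (2 reported). In control neural cells the lower count was 2 under TMM (1 reported). The cause of the other moves was not tested. The log2 ratio of Stra6 in E14.5 neural cells was 1.41 to 1.83 in all 6 alternatives, and its count was lost where its level lay under the 10 CPM minimum. Of all log2 ratios between libraries recomputed, 587 stayed within the counting interval and 61 did not. With 1 library per group, differences between genotypes or ages could stem from the pools, and genes under 10 CPM or with few UMIs have wide intervals.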
